A study of Mus musculus with 40 samples.

Results

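Transcripts of 9 genes that mark blood monocytes (Ly6c2, Ly6i, Ly6a, Plac8, Ace, Vcan, F10, S100a4 and Hp) were followed in CD11b+ cells sorted from the brains of naïve and glioma-bearing mice. The genes were chosen by name, with earlier results of these data known, and each of the 9 was found in all 3 deposited tables among 54513 rows. CD11b is an integrin chain carried by microglia, monocytes, macrophages, neutrophils and many NK cells, so the sort mixes brain-resident and blood-derived cells. The study asked how 7aaRGD, a peptide with the RGD integrin-binding motif, alters these cells alone or with an antibody against the T cell checkpoint receptor PD-1, and it used 7aaRAE, in which this motif is replaced, as the control peptide.

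Male mice of 10 to 12 weeks were used. In the first table, C57BL/6 mice carried GL261 tdTomato+luc+ mouse glioma cells and were killed 21 days post implantation (21 DPI) after water (vehicle), 7aaRGD or 7aaRAE from an osmotic pump, each peptide at 2 mg/ml. Naïve mice without a tumor completed this table, and each of its 4 groups had 3 samples of 2 pooled animals. In the second table, mice with GL261 tumors were killed at 28 DPI, 1 animal per sample, after vehicle (n = 4), 7aaRGD (n = 4), anti-PD-1 at 10 mg/kg (n = 3) or both agents (combination, n = 3), and the mice without anti-PD-1 received control IgG. In the third table, Athymic Nude-Foxn1nu mice, which lack mature T cells, carried human U87-MG RFP+ glioma cells and received vehicle, 7aaRGD or 7aaRAE until 21 DPI, with 3 samples of 2 pooled animals per group. The labels name nude mice for the 28 DPI samples and the methods name C57BL/6 mice. H2-Ea-ps, which C57BL/6 mice do not transcribe, was at most 0.0976 RPKM at 28 DPI and at most 0.0554 RPKM in the GL261 samples of 21 DPI, but lay between 22.5 and 374.5 RPKM in the U87-MG samples. Values for naïve nude mice and for the fourth anti-PD-1 and the fourth combination sample were not analysed here.

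All levels are RPKM, read counts scaled to the length of the gene and the size of the library. Between 9330 and 9823 protein-coding genes reached 1 RPKM in each library, and the read depth is unknown. Itgam, which encodes CD11b, lay between 51.2 and 195 RPKM in every library, while Cd3e, a T cell receptor subunit, stayed under 1 RPKM. In the U87-MG table, the second 7aaRGD and the second 7aaRAE library stood apart, with loadings of 0.52 and 0.63 on a first principal component that held 49.8% of the variance. Among the GL261 samples of 21 DPI, vehicle libraries 1 and 2 had loadings of 0.58 and 0.53 on a component with 38.7% of the variance. At its other end lay 7aaRGD libraries 1 and 2, with loadings of -0.43 and -0.35.

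Blood monocytes of the mouse fall into classical cells, which carry much Ly6C on their surface and enter inflamed tissue through the chemokine receptor CCR2, and non-classical cells, which carry little Ly6C and patrol the vessel wall. Classical monocytes that enter a tumor lower Ly6C as they turn into macrophages. Microglia, the resident macrophages of the brain, have a separate origin and carry hardly any Ly6C. Ly6c2 encodes the Ly6C protein of monocytes, whereas Ly6i and Ly6a (Sca-1) encode small surface proteins of the same family, and Ly6a is induced by interferons. Plac8 encodes a small cysteine-rich protein of immature myeloid cells, Vcan the matrix proteoglycan versican, F10 coagulation factor X, S100a4 a calcium-binding protein and Hp haptoglobin, which binds free hemoglobin. Ace encodes angiotensin-converting enzyme, a surface peptidase used as a marker of non-classical monocytes.

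The 3 members of the Ly6 family lie on the minus strand of chromosome 15 in mm10, with Ly6i at chr15:74979534-74983430, Ly6a at chr15:74994877-74998031 and Ly6c2 at chr15:75108158-75111970. A near copy of Ly6c2, Ly6c1, lies between Ly6a and Ly6c2 at chr15:75044018-75048830. Because copies can share reads, the first 90 coding bases of the 4 genes are given 5′ to 3′ from their GENCODE transcripts, with capitals where a base differs from that of Ly6c2 at the same position.
Ly6c2: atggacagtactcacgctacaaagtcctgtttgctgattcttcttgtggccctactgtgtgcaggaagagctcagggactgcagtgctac
Ly6c1: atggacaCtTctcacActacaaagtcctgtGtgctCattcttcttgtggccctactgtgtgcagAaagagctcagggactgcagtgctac
Ly6i: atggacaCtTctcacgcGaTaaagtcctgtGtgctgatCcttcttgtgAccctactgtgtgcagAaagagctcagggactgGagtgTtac
Ly6a: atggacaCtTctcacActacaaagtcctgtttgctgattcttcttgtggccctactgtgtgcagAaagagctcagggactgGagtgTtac
Over the whole aligned coding sequence, Ly6c2 shared 97.7% of its bases with Ly6c1, 82% with Ly6i and 82.3% with Ly6a. Of all stretches of 50 bases in the protein-coding Ly6c2 transcripts, 30.8% also occurred in Ly6c1, while none occurred in Ly6i and 0.367% in Ly6a. The split of reads between Ly6c2 and Ly6c1 is therefore uncertain. Ly6c1 stayed at or below 3.75 RPKM in every library, also where Ly6c2 exceeded 300 RPKM.

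The other members lie on 5 further chromosomes, with Plac8 at chr5:100553725-100572245, Ace at chr11:105967945-105989964, Vcan at chr13:89655312-89742509, F10 at chr8:13037308-13056676, Hp at chr8:109575128-109579172 and S100a4 at chr3:90603771-90606045. Windows of 250 bases before the start site were at hand from RefSeq (GRCm38.p6, the same coordinates as mm10) for 6 of the 9 members. They are printed for Ly6c2 and Plac8, whose levels moved together, and for Ace, the marker of the other monocyte type. Capitals mark GAGGAA, a form of the site bound by the myeloid factor PU.1, and TATAAA, the TATA box, on either strand.
Ly6c2, chr15:75111972-75112221, minus strand: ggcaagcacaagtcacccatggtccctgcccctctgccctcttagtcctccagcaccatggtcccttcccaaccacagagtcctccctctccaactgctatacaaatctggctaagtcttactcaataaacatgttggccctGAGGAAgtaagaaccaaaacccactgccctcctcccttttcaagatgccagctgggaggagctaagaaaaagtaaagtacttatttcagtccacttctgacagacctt
Plac8, chr5:100572206-100572455, minus strand: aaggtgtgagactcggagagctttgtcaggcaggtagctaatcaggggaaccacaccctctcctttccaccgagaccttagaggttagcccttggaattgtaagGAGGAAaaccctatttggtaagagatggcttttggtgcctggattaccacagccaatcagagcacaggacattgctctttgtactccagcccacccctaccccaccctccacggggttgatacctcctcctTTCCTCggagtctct
Ace, chr11:105967698-105967947, plus strand: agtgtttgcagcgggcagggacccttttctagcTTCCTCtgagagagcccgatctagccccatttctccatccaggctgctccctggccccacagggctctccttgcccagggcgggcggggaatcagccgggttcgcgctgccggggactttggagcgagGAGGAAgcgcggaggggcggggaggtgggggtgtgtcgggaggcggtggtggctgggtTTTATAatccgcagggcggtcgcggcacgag
GAGGAA occurred once in the window of Ly6c2 and 2 times each in those of Plac8 and Ace, and 23.1% of all 27025 windows held it. The windows of Vcan, F10 and S100a4 did not hold it. TATAAA was found for Ace and S100a4 and in 13% of all windows. The interferon-response element, searched as GAAA, any 2 bases and GAAA again and present in 3.04% of windows, and the interferon-gamma-activated site TTCNNNGAA, present in 7.18%, had no match on either strand in the 6 windows.

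Tumor growth was first compared with the naïve brain in C57BL/6 mice. All 9 monocyte genes rose in CD11b+ cells of vehicle-treated GL261 tumors at 21 DPI, with the smallest change in Ace. Ly6c2 was measured at 1.35, 1.82 and 0.985 RPKM in the 3 naïve samples and at 184.6, 302.5 and 325.1 RPKM in the 3 vehicle samples. Ly6i was at 0.429, 0.848 and 0.341 RPKM without a tumor and at 260.1, 457.9 and 437.7 RPKM with it. Ace was at 4.87, 3.38 and 3.13 RPKM in naïve mice and at 18.1, 15.6 and 15.5 RPKM in vehicle-treated ones. Ly6c2 and Ly6i were thus close to absent from naïve CD11b+ cells, Ace was not. In each of the 9 genes, every vehicle sample was above every naïve sample.

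Differences were tested with limma on log2(RPKM + 1), a scale that understates the change of genes at low levels, with p-values adjusted by Benjamini-Hochberg over 9731 protein-coding genes. On this scale the change between vehicle and naïve was 7.94 ± 0.22 (SE) for Ly6i, 7.32 ± 0.15 for Ly6a, 6.89 ± 0.19 for F10, 6.80 ± 0.22 for Ly6c2 and 6.60 ± 0.20 for Plac8. It was smaller for S100a4 (3.71 ± 0.17), Hp (3.53 ± 0.10), Vcan (2.74 ± 0.23) and Ace (1.88 ± 0.13). The adjusted p of limma was 5.42e-08 for Ly6c2, 3.22e-06 for Ace and at most 9.01e-06 for any member. Of all genes tested, 34.6% rose, 82.8% changed in either direction and 35.6% had higher values without overlap, so 9 of 9 stands against a background in which change was common. Ly6i, F10 and Vcan averaged under 1 RPKM in naïve mice, so they passed the filter of a mean of 1 RPKM only through the vehicle samples. Bulk RNA cannot tell more monocytes in the sort from more of these transcripts per cell.

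Genes of the neighbouring lists moved as follows. All 16 listed classical monocyte genes rose, with a median of 3.86, led by Ms4a4c (6.39), Chil3 (5.54) and the fibronectin gene Fn1 (5.44). Of 13 tested non-classical genes, 9 rose and 2 fell, with a median of 1.60, and Itgal, an integrin chain of leukocytes, changed most (4.04). All 16 interferon-induced genes rose (median 5.03), with the chemokine gene Cxcl9 at 7.52. The 10 microglial genes fell (median -3.42), where 48.2% of all genes fell, and the purinergic receptor gene P2ry12 fell by 4.08. The neutrophil list gave 1 higher and 7 lower genes of 10, and its 13 genes summed to 427.8 to 553.8 RPKM in naïve and 138.1 to 280.5 RPKM in vehicle samples.

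Markers of further cell types rose beside the members. Both tested NK and T cell genes rose, the granzyme genes Gzmb (2.64) and Gzma (2.45), and the summed level of the 12 listed genes went from 0.788 to 1.69 RPKM in naïve to 9.69 to 30.8 RPKM in vehicle samples. Of 5 tested dendritic cell genes 4 rose, led by the chemokine receptor gene Ccr7 (5.14), and their list summed to 22.4 to 26.4 RPKM and 200.3 to 232.3 RPKM. Of 8 macrophage genes 4 rose and 3 fell, with the arginase gene Arg1 (9.11) and Gpnmb (6.61) changing most. Of 3 tested endothelial genes 2 rose, Flt1 (3.26) and Kdr (1.49), and the list summed to 11.95 to 14.04 RPKM and 23.76 to 44.65 RPKM. The part of these cells in the rise of the members was not tested.

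**Figure D1:**
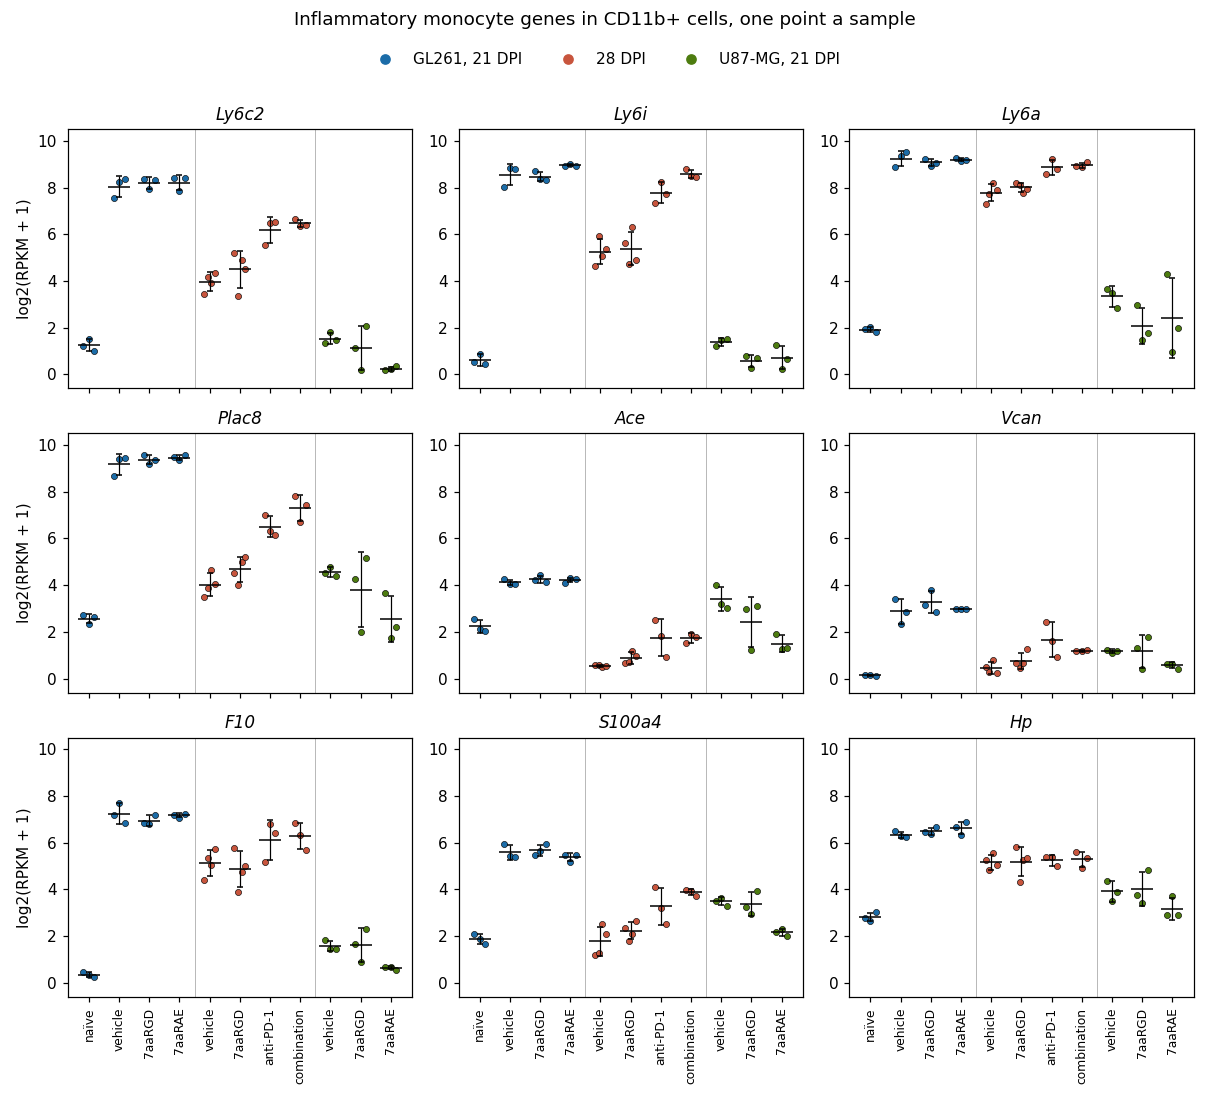
Level of each of the 9 genes, as log2(RPKM + 1), in every sample of the 11 groups, with 1 point per sample and the group mean ± SD. All 9 genes are low in naïve mice and high in GL261 tumors at 21 DPI, and at 28 DPI Ly6c2, Ly6i and Plac8 are higher in both groups with anti-PD-1 than in the groups without it. Tables were normalized separately.

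Neither peptide was followed by a detectable change of these genes in GL261 tumors at 21 DPI. Ly6c2 was at 332.5, 240.9 and 320.8 RPKM after 7aaRGD and at 335.8, 229.3 and 337.6 RPKM after 7aaRAE. Ace was at 17.8, 20.4 and 16.4 RPKM after 7aaRGD and at 16.3, 18.5 and 18.4 RPKM after 7aaRAE. Both ranges overlapped those of vehicle. In the fit of the 3 tumor-bearing groups over 9444 genes, the difference between 7aaRGD and vehicle was 0.17 for Ly6c2 (95% interval -0.35 to 0.69) and 0.14 for Ace (-0.07 to 0.35). It ranged over the members from -0.30 for F10 to 0.39 for Vcan, and limma called 0 of 9, against 0.148% of all genes.

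Between 7aaRAE and vehicle limma called 0 of 9 members and 0 of all genes (percent called 0), while 6.36% of genes had an unadjusted p under 0.05. Ly6i was the exception in its spread. Its values after 7aaRAE were 482.5, 510.5 and 489.5 RPKM, all above the 3 vehicle samples, a lack of overlap that 6.12% of genes shared in this direction. The difference was 0.40 (95% interval -0.03 to 0.84, adjusted p = 0.718). After 7aaRGD, Ly6i was at 414.5, 330.6 and 321.3 RPKM, all under the 7aaRAE samples (3.54% of genes), with a difference between the peptides of -0.48 (-0.92 to -0.05, adjusted p = 0.857). Between the peptides limma called 0 of 9 members and 0 of all genes (percent called 0), and 5.52% of genes had an unadjusted p under 0.05. The comparisons with vehicle share the same 3 vehicle samples.

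The levels of 28 DPI were lower than those of 21 DPI, in tables that were normalized separately and can only be set side by side. In vehicle-treated mice Ly6c2 was at 9.71, 17.1, 14.2 and 19.3 RPKM, Plac8 at 10.3, 13.8, 24.1 and 15.7 RPKM, and Ace at 0.493, 0.518, 0.424 and 0.438 RPKM. Ly6a and Hp lay nearer to their levels of 21 DPI, at 157.3 to 288.6 RPKM and 27.1 to 46.6 RPKM. Whether the day, the pooling of animals or the separate processing sets these levels cannot be told apart.

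At 28 DPI, 7aaRGD alone gave no called member. Ly6c2 was at 35.4, 9.35, 29.2 and 21.9 RPKM after the peptide, of which 3 samples exceeded every vehicle sample and 1 lay under all of them. Plac8 was at 21.7, 14.9, 30.7 and 35.9 RPKM. Ace was at 0.574, 0.658, 1.28 and 0.930 RPKM, above vehicle without overlap, as were 3.96% of genes. The log2 difference was 0.65 for Plac8 (95% interval -0.03 to 1.32, adjusted p = 0.361), 0.53 for Ly6c2 (-0.21 to 1.26, adjusted p = 0.485) and 0.33 for Ace (-0.20 to 0.85, adjusted p = 0.551), over 9740 genes of which limma called 0.647%. The intervals of Ly6c2 and Plac8 reach past a 2-fold rise, so these 4 samples per group could not exclude one.

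After anti-PD-1, 7 of the 9 genes rose over vehicle. Ly6c2 was at 45.2, 88.4 and 91.0 RPKM, Ly6i at 161, 304.4 and 211.9 RPKM against 24.0, 59.9, 32.6 and 39.8 RPKM in vehicle, and Plac8 at 129.2, 79.1 and 70.7 RPKM. Every anti-PD-1 sample was above every vehicle sample for these 3 genes. The log2 change was 2.53 ± 0.36 (SE) for Ly6i (adjusted p = 0.000498), 2.48 ± 0.34 for Plac8 (adjusted p = 0.000414) and 2.21 ± 0.37 for Ly6c2 (adjusted p = 0.00134), or 5.77-fold, 5.56-fold and 4.63-fold. Ly6a rose by 1.10 ± 0.19, to 383.4, 596.6 and 446.4 RPKM. Of all genes tested 10.8% rose, and 15.4% were higher without overlap, as were the same 7 members.

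Ace, Vcan and S100a4 rose from far lower levels. Ace reached 4.64, 2.59 and 0.888 RPKM after anti-PD-1, a change of 1.20 ± 0.26 (adjusted p = 0.00594). Adding 1 understates the change of a gene under 1 RPKM, so 1.20 and the 2.21 of Ly6c2 do not compare directly. Mean Ace went from 0.469 RPKM in vehicle to 2.70 RPKM after anti-PD-1, and mean Ly6c2 from 15.1 to 74.9 RPKM. Vcan was at 4.44, 2.08 and 0.912 RPKM against 0.415, 0.212, 0.747 and 0.196 RPKM in vehicle (1.21 ± 0.28, adjusted p = 0.00779), and S100a4 at 16.1, 8.19 and 4.69 RPKM against 1.31, 1.41, 4.67 and 3.28 RPKM (1.50 ± 0.36, adjusted p = 0.00965). Ace and Vcan averaged 0.469 and 0.393 RPKM in vehicle and 0.860 and 0.738 RPKM after 7aaRGD, so both passed the filter only through the groups with anti-PD-1, and 5 of the other 7 members rose. With no filter their adjusted p was 0.014 and 0.0175. Without the first anti-PD-1 sample Vcan fell under the filter and F10 passed. In Ace, Vcan and S100a4 the third anti-PD-1 sample was the lowest and lay closest to the vehicle samples, whereas the same sample had the highest Ly6c2. F10, at 35.0, 109.5 and 83.1 RPKM, did not pass (0.99, adjusted p = 0.137), and Hp, at 41.0, 40.9 and 30.7 RPKM, lay within the vehicle range (0.08, 95% interval -0.53 to 0.69).

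The combination of 7aaRGD and anti-PD-1 gave the highest mean Ly6c2, Ly6i, Plac8 and S100a4 of the 28 DPI table. Ly6c2 was at 99.7, 82.0 and 84.2 RPKM, Ly6i at 440.1, 360.7 and 345.5 RPKM, and Plac8 at 221.8, 103 and 170.5 RPKM. Plac8 was thus 9.71-fold above vehicle and Ly6i slightly more, and for Ly6i and Plac8 the log2 changes were 3.33 ± 0.36 (adjusted p = 1.51e-05) and 3.28 ± 0.34 (adjusted p = 1.18e-05). Ly6c2 rose by 2.51 ± 0.37 (adjusted p = 0.000158). S100a4 rose by 2.11 ± 0.36 to 14.7, 14.3 and 12.2 RPKM, and Ly6a rose by 1.19 ± 0.19. In all, limma called 7 of 9 members higher, against 17.5% of all genes, and the same 7 were above vehicle without overlap, as were 20.0% of genes. Ace and Vcan are among the 7 and passed the filter of a mean of 1 RPKM only through the groups with anti-PD-1. The other called members, Ly6c2, Ly6i, Ly6a, Plac8 and S100a4, were above 1 RPKM in every vehicle sample.

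Ace was at 1.88, 2.77 and 2.45 RPKM after the combination and rose by 1.19 ± 0.26 (adjusted p = 0.00273, and 0.00669 with no filter). Vcan, at 1.23, 1.25 and 1.35 RPKM, passed narrowly (0.73 ± 0.28, adjusted p = 0.048) and lost the call in 11 of 15 alternatives, among them the fit with no filter (adjusted p = 0.0795) and the fit with the replicate number as a block (adjusted p = 0.0634). F10, at 112.3, 79.2 and 50.9 RPKM, narrowly missed (1.15 ± 0.46, adjusted p = 0.0565) and passed in 5 of 17 alternatives. Hp did not pass, with a difference of 0.12 (95% interval -0.49 to 0.73).

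**Figure D2:**
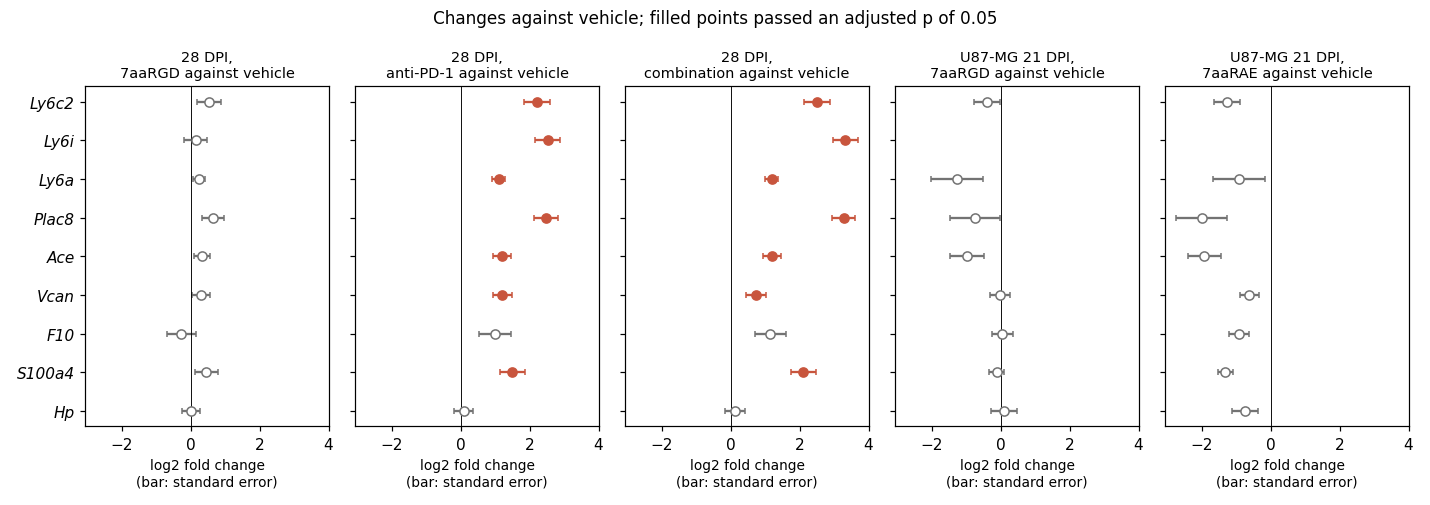
Log2 fold change of the 9 genes against vehicle, ± SE, at 28 DPI and in the U87-MG table, with filled points where the adjusted p of limma is under 0.05. Both treatments with anti-PD-1 have 7 filled points at 28 DPI and no treatment has any in the U87-MG table, where Ly6i was not tested.

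The combination was not separable from anti-PD-1 alone. Ly6i was higher in all 3 combination samples than in any anti-PD-1 sample, as were 6.23% of genes, with a difference of 0.80 (95% interval -0.02 to 1.62, adjusted p = 0.348). For Plac8 the difference was 0.80 (0.02 to 1.58, adjusted p = 0.318), for Ly6c2 0.30 (-0.55 to 1.15) and for Ace -0.01 (-0.61 to 0.59). Limma called 0 of 9 members and 0.0411% of all genes. The interaction, which asks whether both agents together differ from the sum of each alone, gave 0 of 9 members and 0 of all genes (percent called 0, with 8.15% of genes at an unadjusted p under 0.05), and was 0.66 for Ly6i (-0.42 to 1.74), -0.23 for Ly6c2 (-1.35 to 0.89) and -0.78 for Vcan (-1.63 to 0.06). These 28 DPI comparisons share their vehicle or anti-PD-1 samples.

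The order of the group means at 28 DPI was the same for Ly6c2, Ly6i, Ly6a, Plac8 and S100a4, with the combination first, then anti-PD-1, 7aaRGD and vehicle. For Ly6c2, Ly6i, Ly6a and Plac8 the anti-PD-1 samples did not overlap those of 7aaRGD, whereas 7aaRGD and vehicle overlapped. For Ace and Vcan anti-PD-1 came first and the combination next, and these neighbours overlapped.

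Lists of related genes were set beside these changes. Of 16 further classical genes, 5 rose and 1 fell after either treatment with anti-PD-1. Their median was 0.51 after anti-PD-1 and 0.41 after the combination, beside -0.01 and -0.05 over all genes. Of all genes, 10.8% rose and 12.2% fell after anti-PD-1, and 17.5% rose and 25.7% fell after the combination. The chemokine receptor gene Ccr2 rose by 1.16 ± 0.35 and 1.30 ± 0.35. Glutathione reductase (Gsr) fell by 1.35 after the combination. Of 12 tested non-classical genes, 3 rose after each treatment, with medians of 0.28 and 0.10, namely Adgre4 (0.85 and 0.82), Spn (0.57 and 0.73) and Itgal (0.54 and 0.44). Of 16 interferon-induced genes, 14 rose after each treatment, with medians of 0.88 and 1.18, among them the GTPase gene Gbp2 (1.28 and 1.53). Of the other Ly6 genes, 4 could be tested and Ly6e rose (0.63 and 0.84).

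Markers of other CD11b+ cells moved with these results in part. The summed level of 12 NK and T cell genes was 4.79 to 14.2 RPKM in vehicle, 62.6, 78.0 and 4.11 RPKM in the 3 anti-PD-1 samples, and 32.0, 97.5 and 99.2 RPKM in the combination samples. Of 7 tested genes of this list, 0 were called after anti-PD-1 and 6 rose after the combination, led by the granzyme gene Gzma (2.99 ± 0.91). Cd3e and Cd3g were under 0.5 RPKM in every one of these samples. Cd8a and Lck were under 0.5 RPKM in every vehicle sample but not in every sample of either treatment. Cd8a reached 0.601 RPKM after anti-PD-1 and 0.509 RPKM after the combination. In the third anti-PD-1 sample, which is 1 animal, Ly6c2, Ly6i and Plac8 were at 91.0, 211.9 and 70.7 RPKM. Ace, Vcan and S100a4 were at 0.888, 0.912 and 4.69 RPKM in the same sample. Of 10 neutrophil genes, 1 rose after anti-PD-1 and after the combination 1 rose and 1 fell, the latter being Retnlg (-2.86). The 13 neutrophil genes summed to 223 to 447.6 RPKM in vehicle, 268.7 to 419.9 RPKM after anti-PD-1 and 203.1 to 348.9 RPKM after the combination, and these ranges overlapped. All 3 tested endothelial genes rose after both treatments, Flt1 by 1.25 and 1.55, while the endothelial genes Tek, Slco1a4, Esam, Ptprb and Egfl7 stayed under 0.5 RPKM. Microglial genes rose in 2 of 10 and 6 of 10 cases. Ddit4, a stress-response gene named after its values were seen, was at 80.6 to 129.7 RPKM in vehicle, 11.3, 11.6 and 46.4 RPKM in the 3 anti-PD-1 samples and 10.51 to 12.07 RPKM after the combination. Neither treatment overlapped vehicle, but a gene named with its values in view gives no test. Of all genes, 17.1% were lower than vehicle without overlap after anti-PD-1 and 28.8% after the combination. The part of these cells and of Ddit4 in the changes of the monocyte genes was not tested.

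**Figure D3:**
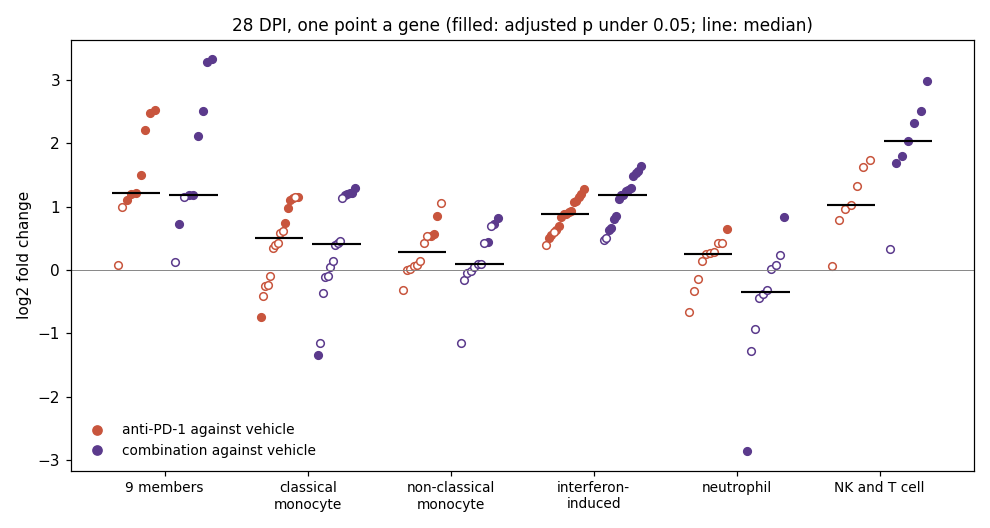
Log2 fold change against vehicle at 28 DPI of each gene in 6 lists, after anti-PD-1 and after the combination, with 1 point per gene. Members have medians of 1.21 and 1.19, classical monocyte genes 0.51 and 0.41, interferon-induced genes 0.88 and 1.18 and NK and T cell genes 1.03 and 2.04.

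In U87-MG tumors of nude mice Ly6c2 and Ly6i were scarce and Ace was not. The near copy Ly6c1 averaged 1.87 RPKM in vehicle samples, beside 1.91 RPKM for Ly6c2. The Ly6c2 levels of this table may therefore depend on how shared reads were split. Ly6c2 was at 1.51, 2.47 and 1.74 RPKM in vehicle samples, Ace at 15.0, 8.23 and 7.19 RPKM, and Plac8 at 21.8, 26.7 and 19.8 RPKM. Ly6i was at 1.29, 1.78 and 1.86 RPKM in vehicle samples. Its mean over the table was under 1 RPKM, so it was not tested, which left 8 of 9 members among 9668 genes. The 10 microglial genes summed to 9477 to 12060 RPKM in these vehicle samples and to 1438 to 2107 RPKM in GL261 vehicle samples of 21 DPI, in tables normalized separately.

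After 7aaRGD, Ly6c2 was at 1.19, 0.134 and 3.16 RPKM and Ace at 6.98, 1.30 and 7.53 RPKM, with the lowest value of each in the second library, which stood apart. Plac8 was at 18.2, 3.03 and 34.5 RPKM and showed the same pattern. Limma called 0 of 8 members and 0 of all genes (percent called 0, with 3.78% of genes at an unadjusted p under 0.05), and the differences from vehicle were -0.40 for Ly6c2 (95% interval -1.26 to 0.46), -0.98 for Ace (-2.06 to 0.10) and -0.75 for Plac8 (-2.41 to 0.91). Without both libraries that stood apart they were 0.07, -0.37 and 0.15, so the sign for Ly6c2 and Plac8 rested on these libraries.

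After 7aaRAE, 6 of the 8 tested members lay lower than vehicle without overlap and none passed the test. Ly6c2 was at 0.122, 0.184 and 0.265 RPKM, Ace at 2.75, 1.39 and 1.45 RPKM, Plac8 at 11.6, 2.38 and 3.66 RPKM and S100a4 at 3.55, 3.94 and 3.00 RPKM against 10.4, 11.5 and 8.91 RPKM in vehicle. All 3 samples were under all vehicle samples for these genes and for F10 and Vcan, where 9.45% of all genes were lower without overlap. Ly6c2, F10 and Vcan averaged under 1 RPKM after 7aaRAE and passed the filter through the other groups. Ly6a, at 18.9, 0.921 and 2.95 RPKM against 11.7, 10.2 and 6.20 RPKM, and Hp, at 6.45, 12.1 and 6.54 RPKM against 19.5, 10.2 and 13.8 RPKM, overlapped vehicle, and the first 7aaRAE sample had the highest Ly6a. The differences from vehicle were -2.01 for Plac8 (adjusted p = 0.549), -1.93 for Ace (adjusted p = 0.332), -1.32 for S100a4 (adjusted p = 0.131) and -1.28 for Ly6c2 (adjusted p = 0.477). No member passed, against 0.0103% of all genes.

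No gene of the 2 further monocyte lists was called in this model. After 7aaRAE the 16 classical genes had a median of -0.15, with 11 negative and 3 without overlap with vehicle, and the 13 tested non-classical genes a median of -0.73, with 11 negative and 9 without overlap, where 16.5% of all genes did not overlap in either direction. After 7aaRGD, 13 of the 16 classical genes were positive (median 0.28) and 11 of the 13 non-classical genes negative (median -0.46), beside a median of -0.00 over all genes. Both peptide groups include a library that stood apart, and the lists were not counted without these libraries.

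Without the libraries that stood apart, the differences between 7aaRAE and vehicle were -1.62 for Plac8, -1.81 for Ace, -1.39 for S100a4 (adjusted p = 0.075) and -1.27 for Ly6c2, again with 0 of 8 called. In a fit of vehicle and 7aaRAE alone, 4 members were lower by limma, S100a4 (adjusted p = 0.016), Ly6c2 (0.0241), F10 (0.0472) and Ace (0.0472). That fit called 32 genes in all, in either direction, where the fit of all 3 groups called 1 of 9668. Ly6c2 and F10 passed the filter of the smaller fit through the vehicle samples. Vcan, with means of 1.27 RPKM in vehicle and 0.482 RPKM after 7aaRAE, fell under that filter and was not tested. NK and T cell genes summed to 15.4, 9.73 and 27.4 RPKM in vehicle and 3.16, 1.26 and 0.771 RPKM after 7aaRAE, where 11 of the 12 were under 0.5 RPKM. Ddit4, named after its values were seen, was at 16.6, 8.89 and 9.83 RPKM in vehicle and at 43.3, 180.0 and 69.5 RPKM after 7aaRAE. The part of these genes' sources in the lower levels was not tested.

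Between the peptides in this model, S100a4 was higher after 7aaRGD, at 8.46, 6.60 and 14.3 RPKM, than after 7aaRAE without overlap, as were F10 and 3.45% of all genes. The differences were 1.20 for S100a4 (95% interval 0.70 to 1.71) and 0.97 for F10 (0.30 to 1.64). Limma called 0 of 8 members and 0 of all genes (percent called 0, with 3.38% of genes at an unadjusted p under 0.05). The comparisons of both peptides with vehicle share the 3 vehicle samples.

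The balance of Ly6c2 to Ace, taken per sample as the log2 ratio of RPKM + 1 and given without a test, differed in sign between the models. It ran from -1.32 to -0.63 in the 3 naïve samples and was 3.92 ± 0.56 (SD, n = 3) in GL261 vehicle samples of 21 DPI, and the peptide groups stood at 3.95 ± 0.39 for 7aaRGD and 3.99 ± 0.38 for 7aaRAE. At 28 DPI it was 3.41 ± 0.42 (n = 4) in vehicle, 3.62 ± 0.77 (n = 4) after 7aaRGD, 4.43 ± 1.30 (n = 3) after anti-PD-1 and 4.74 ± 0.35 (n = 3) after the combination. The anti-PD-1 samples spread from 3.04 to 5.61, which overlaps the vehicle range of 2.84 to 3.82. In the third anti-PD-1 sample Ly6c2 was the highest of its group and Ace the lowest. In U87-MG tumors the ratio was negative in all 3 groups, at -1.89 ± 0.69 in vehicle, -1.31 ± 0.48 after 7aaRGD and -1.24 ± 0.44 after 7aaRAE, and the groups overlapped. Where a gene averaged under 1 RPKM, the added 1 weighs heavily on the ratio. This held for Ace at 28 DPI in vehicle (0.469 RPKM) and after 7aaRGD (0.860 RPKM). It also held for Ly6c2 after 7aaRAE in U87-MG tumors (0.190 RPKM). Differences between groups within the 28 DPI and U87-MG tables therefore cannot be read from this ratio.

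**Figure D4:**
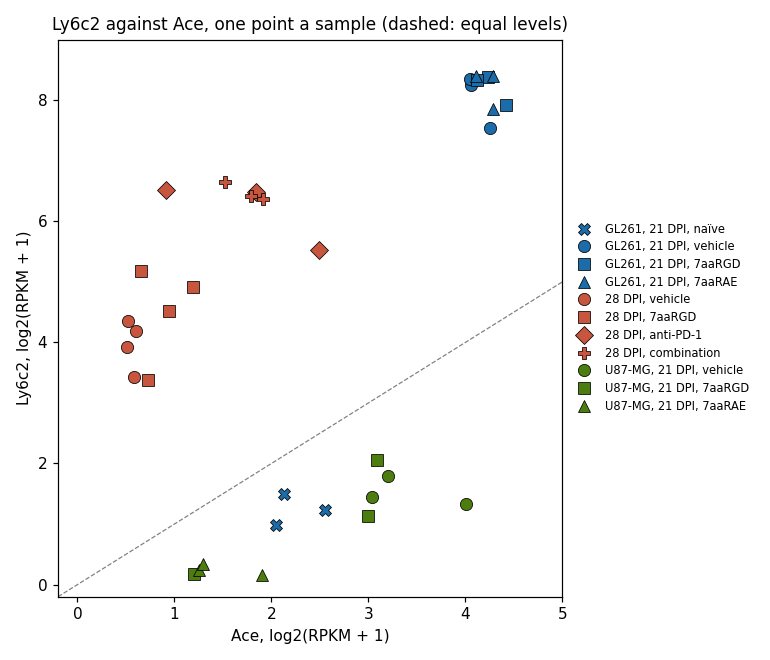
Ly6c2 against Ace in each sample, both as log2(RPKM + 1), with a dashed line where the levels are equal. All tumor-bearing GL261 samples lie on the Ly6c2 side of the line, and all naïve and U87-MG samples lie on the Ace side. Tables were normalized separately.

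Over the tumor-bearing samples, the correlation of Ly6c2 and Ace was negative in the 21 DPI GL261 table and positive in the 28 DPI and U87-MG tables. Their Pearson r was -0.53 over 9 GL261 samples of 21 DPI, 0.70 over 14 samples of 28 DPI and 0.85 over 9 U87-MG samples, where the libraries that stood apart were low in both. Genes were ranked by the lowest of their 3 r values, over 8914 genes. Plac8 was most like Ly6c2 (r = 0.91, 0.89 and 0.89), followed by Relb, which encodes an NF-kB subunit (lowest r 0.77), Tmsb10 (0.76), Nmi (0.75) and Eng (0.75). Most like Ace were Vcan (0.82, 0.88 and 0.85) and Adgre4, an adhesion receptor gene of non-classical monocytes (0.84, 0.81 and 0.97), then Tiam1 (0.78), Arhgap26 (0.76) and Tra2a (0.75). Vcan, used as a classical marker, followed Ace more closely than Ly6c2 in both GL261 tables, since its r with Ly6c2 was -0.53, 0.57 and 0.91. The points of a table share their normalization and treatments, and these r values are descriptions.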

How the data were processed

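CD11b+ cells were FACS-sorted, and RNA was sequenced from strand-specific poly-A libraries. Per the methods, the authors used Trimmomatic to trim and STAR to align to mm10, flagged duplicates with Picard, counted reads per gene with HTSeq-count 0.11.1 in reverse-stranded mode and tested with NOISeq. The deposited values are RPKM plus a constant of 2, in 3 tables of 54513 rows. Between 12.57% and 13.97% of values in rows with signal lie under the constant, so the RPKM were altered after scaling. In the 21 DPI GL261 table replicates vary in 7 of 8 possible dimensions and at 28 DPI in 9 of 10, so their residuals are not fully independent. The number of columns not used was 0, and 35 of 40 samples had a column. Read depth is unknown.

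The constant was subtracted, 98.9% of rows were matched to a GENCODE annotation of mm10 and protein-coding genes were kept if they averaged 1 RPKM or more over the fitted samples. The test was limma (version 3.58.1, R 4.3.3), run on log2(RPKM + 1) with lmFit and trended eBayes (two-sided, Benjamini-Hochberg, adjusted p under 0.05). Naïve samples were fitted with vehicle alone, and the tumor-bearing groups of a table together. The fit was tested on simulated data. Same-numbered samples deviated together (r above 0.1) in 1 of 18 pairs at 21 DPI and 3 of 19 at 28 DPI, so the numbers were not taken as pairs.

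The 9 members and the gene lists were chosen with earlier results of these data known. Besides the members, up to 3 genes with the largest change were named per list where any passed, otherwise at most 2 with the highest level, and the 5 genes most like Ly6c2 and Ace. Values of some single genes are left out of the text. Groups came from the labels. Nothing says how samples share cultures or days, so p-values measure the spread between samples as deposited, after the alteration described above. In both tables of 21 DPI a sample is a pool of 2 animals, so there the p-values do not measure the spread between single animals. Alternatives were other pseudocounts (0.1 and 5), filters, scalings, a replicate block, leaving out each replicate, all named genes, 1 residual degree of freedom less, fewer groups in the fit and, chosen after seeing the data, leaving out both U87-MG libraries that stand apart.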

Additional observations from a re-analysis of the deposited data

How the results depend on the processing

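Of 202 counts of called members under alternatives, 1 left the range of 1.5 times the reported count: a fit of the compared U87-MG groups alone called 4 members lower after 7aaRAE than after vehicle, where the fit of all 3 groups called 0. That fit also raised the genes called from 1 to 32. Of 1735 fold changes, 1714 kept their direction and side of the threshold, 11 lost the call (Vcan, combination against vehicle), 10 gained one and 0 called values reversed. The members called for vehicle against naïve were 8 or 9, for anti-PD-1 against vehicle 5 to 7 and for the combination against vehicle 5 to 8, the lowest with a filter of 5 RPKM, which left fewer members to test. Without each replicate in turn they were 9, 7 and 6 to 7, and 0 in the other comparisons. With the replicate block they were 9, 7 and 6, and 0 in the others. No paired analysis was possible for U87-MG because its columns carry no replicate numbers. Counts over all genes moved more: 7aaRGD against vehicle gave 14 at 21 DPI (0 to 125, the highest without vehicle replicate 3) and 63 at 28 DPI (0 with the replicate block, 93 with all named genes), anti-PD-1 2246 (1358 without anti-PD-1 replicate 2), the combination against anti-PD-1 4 (0 to 26), and vehicle against naïve 8062 (5289 with the filter of 5 RPKM). The comparisons with 0 genes called gave at most 7 under any alternative. Of 22 values of the ratio of Ly6c2 to Ace with pseudocounts of 0.1 and 5, 13 moved by more than 1 SD and 0 changed sign. The sign of the ratio thus held, but its size depended on the pseudocount.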

Other observations

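Lists of other myeloid and glial genes were also counted at 28 DPI. Of 8 macrophage genes, 0 were called after anti-PD-1, and after the combination 1 rose and 3 fell, the latter being the mannose receptor gene Mrc1 (-1.29), Gpnmb (-0.77) and the apolipoprotein gene Apoe (-0.50). Of all genes 10.8% rose and 12.2% fell after anti-PD-1, and 17.5% rose and 25.7% fell after the combination. Of 4 tested dendritic cell genes, 2 rose after anti-PD-1, namely the lectin gene Cd209a (1.89) and the chemokine receptor gene Ccr7 (1.08). After the combination 3 rose and 1 fell, with Cd209a at 2.56 and Ccr7 at 1.94. Of 6 tested genes of the oligodendrocyte lineage, 1 rose and 3 fell after each treatment, among them the transcription factor genes Olig1 (-1.07 and -1.77) and Sox10 (-1.10 and -1.60).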
